A study of Mus musculus with 4 samples.

Results

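The genes described here encode the subunits, assembly chaperones and regulators of the proteasome, taken as every gene symbol that begins with Psm, a letter from a to g and a digit. The rule matched 50 symbols with a probe set of their own, of 30803 named genes in all. Of the 50, 46 are proteasome genes, 2 are pseudogenes (Psmb5-ps and Psmb6-ps) and 2 share the name only: Psmc3ip encodes a meiotic recombination factor and Psme3ip1 a protein that binds the PA28 gamma activator. A further 4 probe sets were annotated to such a symbol together with another gene, among them those of Psmb5 and Psme2, and are given as readings of the probe set. Of the 46 proteasome genes, 44 passed a filter on dim genes, a mean over the arrays at or above the 40th percentile of all named genes (4.32). Psmb11, the thymus subunit, and Psmg3, an assembly chaperone, did not pass.

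The measurements came from 4 single-channel expression arrays of mouse liver, 1 array for each genotype and time, each hybridised with RNA pooled from 3 male mice. Wildtype 0 h and wildtype 24 h were livers of mice described as floxed YAP, so the controls carry the unrecombined allele, and YAP-KO 0 h and YAP-KO 24 h were livers of YAP knockout mice. The 0 h mice were fasted, and the 24 h mice were fasted, injected intraperitoneally with 300 mg/kg acetaminophen (paracetamol, also abbreviated APAP) and killed 24 h later. The Cre driver, the deleted exons and the ages of the mice are not stated by the labels, and no array held liver at 24 h without the drug. The overdose, the time since 0 h and feeding in between cannot be told apart, and the word response is used below for the whole 24 h minus 0 h difference.

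The proteasome is the main protease of the cytosol and nucleus and degrades proteins tagged with ubiquitin. Its 20S core is a barrel of outer alpha rings, which gate the entrance, and inner beta rings, which hold the proteolytic sites of Psmb5, Psmb6 and Psmb7. The 19S regulator caps the barrel: its base unfolds substrates with the ATPases Psmc1 to Psmc6, and its lid removes ubiquitin. In cells exposed to interferon, Psmb8, Psmb9 and Psmb10 replace the catalytic subunits to give the immunoproteasome, which trims peptides for MHC class I. When proteasomes fail, the transcription factor NFE2L1 (also called TCF11 or NRF1) raises expression of most subunit genes through antioxidant response elements, the sequence also used by NRF2.

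Values are log2 array readings, in which a difference of 1 is 2-fold, and genes are called higher or lower at 1.5-fold (0.58). Each group rests on a single array, so values carry no error and single arrays cannot be tested against each other; a pool hides the spread between mice. Differences are set beside the share of all 18487 genes past the same size. The array medians lay between 4.32 and 4.47 over all probe sets. Yap1 read 7.54 and 8.24 in wildtype at 0 h and 24 h and 6.31 and 6.01 in YAP-KO, lower in YAP-KO at both times; where its probes lie relative to the deletion was not stated. Of 7 hepatocyte markers, 5 were within 0.01 of the top of the scale on at least 1 array, as in liver tissue. No proteasome gene was that bright, and each had 1 probe set. Differences are taken between arrays for 1 gene at a time. Levels of different genes are set together only roughly, in the filters, in calling genes bright or dim and in summed markers.

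Start-site windows from RefSeq (GRCm38.p6), 250 bases before to 50 bases after the annotated start, were at hand for 41 of the 49 proteasome symbols listed. Of the 5 below, Psmd8 and Psmb6 had the highest wildtype and YAP-KO responses, Psmd14 and Psmb10 the lowest and highest genotype differences at 24 h, and Psmd12 is shown for its match to the element of NFE2L1. Capitals mark matches to the antioxidant response element core TGACNNNGC in Psmd12 (chr11:107479278-107479577, plus strand) and Psmb6 (chr11:70525107-70525406, plus strand), to the CCAAT box, on either strand, in Psmd14 (chr2:61711444-61711743, plus strand) and to the TEAD site core GGAATG in Psmd8 (chr7:29180624-29180923, minus strand). TEAD proteins are the DNA-binding partners of YAP. The Psmb10 window (chr8:105938343-105938642, minus strand) held none of these, nor the interferon-stimulated element core (GAAA repeated with any 2 bases between, written below as the interferon core), and has no capitals.

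Psmd12: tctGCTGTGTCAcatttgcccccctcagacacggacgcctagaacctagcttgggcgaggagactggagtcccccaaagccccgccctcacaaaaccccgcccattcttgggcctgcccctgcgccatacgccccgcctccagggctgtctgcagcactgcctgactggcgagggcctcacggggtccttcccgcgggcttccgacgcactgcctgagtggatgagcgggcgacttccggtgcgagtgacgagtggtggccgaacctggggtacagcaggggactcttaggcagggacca

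Psmb6: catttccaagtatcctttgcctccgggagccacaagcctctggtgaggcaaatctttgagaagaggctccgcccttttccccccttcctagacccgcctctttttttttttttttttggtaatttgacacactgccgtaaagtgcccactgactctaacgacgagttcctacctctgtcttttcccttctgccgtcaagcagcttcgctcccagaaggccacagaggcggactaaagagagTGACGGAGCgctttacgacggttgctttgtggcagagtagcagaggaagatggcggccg

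Psmd14: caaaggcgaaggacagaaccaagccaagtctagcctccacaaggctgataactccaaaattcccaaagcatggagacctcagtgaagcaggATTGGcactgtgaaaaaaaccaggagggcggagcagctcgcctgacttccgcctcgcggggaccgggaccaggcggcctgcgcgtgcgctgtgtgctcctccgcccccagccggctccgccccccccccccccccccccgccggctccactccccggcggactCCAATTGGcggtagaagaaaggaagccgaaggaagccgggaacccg

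Psmd8: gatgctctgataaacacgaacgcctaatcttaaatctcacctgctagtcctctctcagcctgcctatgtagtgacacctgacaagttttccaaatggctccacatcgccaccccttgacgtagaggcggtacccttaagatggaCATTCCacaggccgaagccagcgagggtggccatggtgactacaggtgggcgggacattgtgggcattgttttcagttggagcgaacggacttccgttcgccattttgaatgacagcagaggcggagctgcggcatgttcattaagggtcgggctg

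Psmb10: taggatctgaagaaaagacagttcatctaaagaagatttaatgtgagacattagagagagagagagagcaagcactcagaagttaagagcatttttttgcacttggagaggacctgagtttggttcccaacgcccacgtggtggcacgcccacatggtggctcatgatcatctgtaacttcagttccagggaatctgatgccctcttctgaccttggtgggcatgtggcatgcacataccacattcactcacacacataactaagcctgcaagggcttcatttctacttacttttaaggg

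Searched on both strands and counted by gene, TGACNNNGC was in the windows of 6 of the 41 genes (14.6%): Psmb5, Psmb6, Psmc6, Psmd9, Psmd12 and Psme4. It was in 12.4% of all 32851 windows. The match in Psmd12 starts 247 bases before the start and lies on the reverse strand, and 2 of the 3 CCAAT matches of Psmd14 overlap each other just after the start. The match in Psmb6 starts 9 bases before the start. CCAAT was found for 14 genes (34.1%, against 37.4% of all windows), GGAATG for 4 (9.76% against 14.7%) and the interferon core for 5 (12.2% against 3.44%): Psmb3, Psmd4, Psmd9, Psme1 and Psmg4. None of the 3 immunoproteasome genes was among those 5. These motifs are short, the windows leave out distal elements, no motif searched contains another, and a match is a description of the letters only.

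In wildtype liver most proteasome genes read higher 24 h after acetaminophen, by most in the 19S regulator, whereas the immunoproteasome genes read slightly lower. Of 44 proteasome genes, 27 were at least 1.5-fold higher and 0 lower, where 23.3% of all genes were higher and 12% lower. Their median response was 0.80, against 0.07 over all genes. At 2-fold 16 were higher, against 12.7% of all genes. The extremes were Psmd8 of the 19S lid at 1.96 and the immunoproteasome gene Psmb9 at -0.38. With each array centred on its median, 20 were higher and 2 lower among the members, while the balance over all genes turned to 15.8% higher and 21.7% lower. Proteasome genes are mostly bright, and among genes above the 60th percentile of level 31.8% were called higher.

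In YAP-KO liver the response had the same direction for most members and was smaller. Of 44 genes, 15 were at least 1.5-fold higher and 0 lower, where 13.5% of all genes were higher and 6.02% lower, and the median was 0.46 against 0.07. At 2-fold 2 were higher, Psmb6 and Psmd8, and 0 lower, where 4.72% of all genes were higher and 2.21% lower. With centring the count was 8, with 9.54% of all genes higher and 9.26% lower. Measured from the wildtype 0 h array in place of the YAP-KO one, the count was 22 and the median 0.58. At the smallest fold size tried the genotypes were close, with 33 higher in wildtype and 32 in YAP-KO. Of all genes 34.1% and 26.1% were then higher. The genotypes shared 14 of the called genes, and 13 were called in wildtype alone. Only 1, Psmb10, was called in YAP-KO alone, and both quantile normalization and centring ended that call. Of all 18487 genes, 1632 were called higher in both, 2669 in wildtype alone and 868 in YAP-KO alone. Most wildtype calls over all genes were thus in wildtype alone. The response was the larger one, by sign, in wildtype for 30 of the 44 genes (68.2%), against 50% of all genes. That 50% mixes rising and falling genes, and a smaller fall counts as larger, so it is no like background for mostly rising members. Over all genes calls in both directions were fewer in YAP-KO than the 23.3% and 12% of wildtype. The wildtype and YAP-KO responses share no array. Taken as the YAP-KO minus the wildtype response, 12 genes were at least 1.5-fold lower and 1 higher, where 16.4% of all genes were lower and 13.8% higher (13% and 18.3% with centring, where the members' counts were 10 lower and 6 higher; with quantile normalization they were 10 and 5). At 2-fold 1 was lower, Psme3, against 7.5% of all genes. Among genes above the 60th percentile of level, 20.8% were at least 1.5-fold lower and 15.8% higher in this difference.

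**Figure D1:**
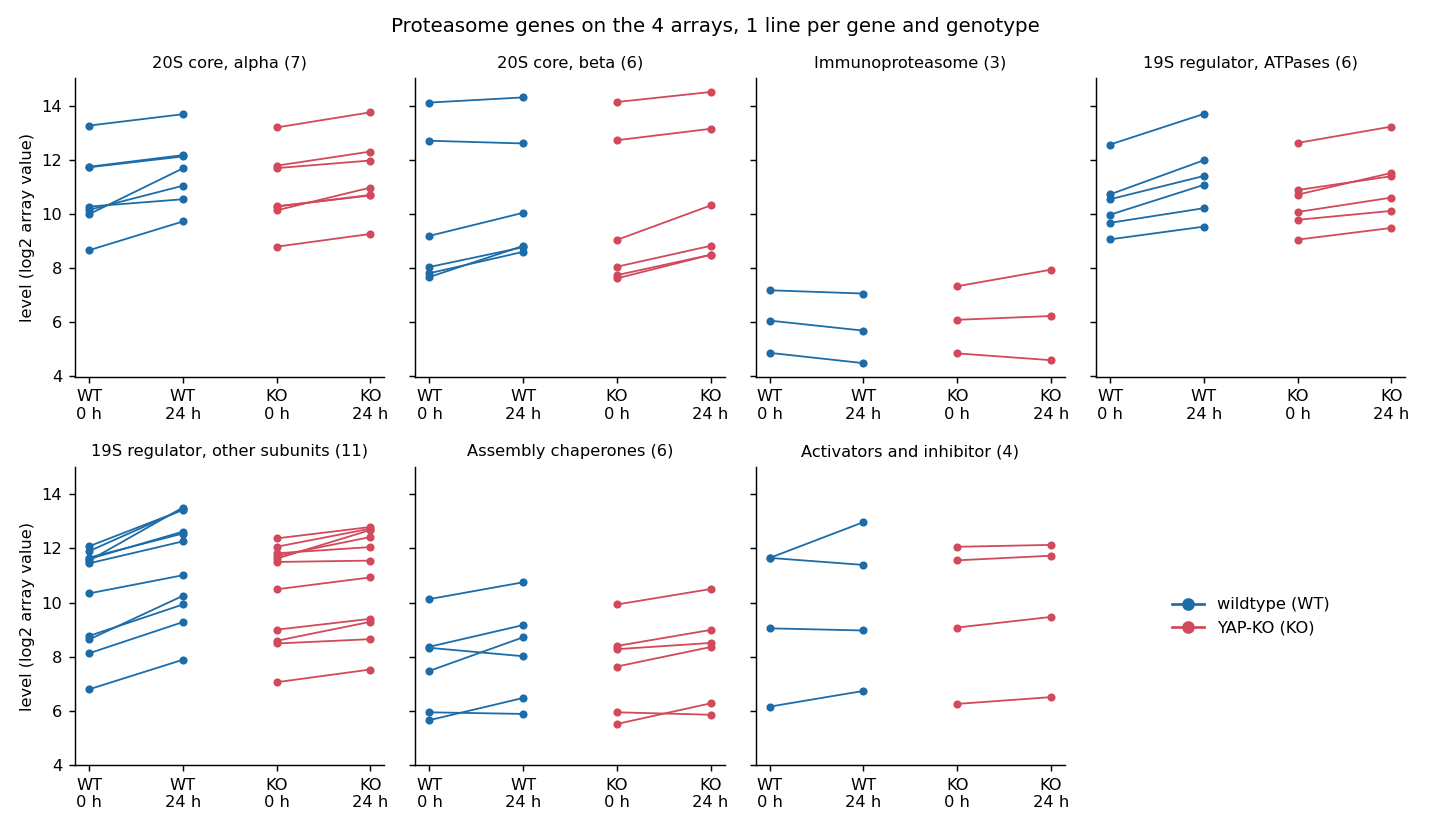
Log2 level of each proteasome gene (vertical axis) on the 4 arrays (horizontal axis), with 1 panel per class. Each panel has 1 line per gene and genotype (blue wildtype, red YAP-KO) and the number of genes in brackets. Psma8 is not drawn. All 11 lines of the other 19S subunits climb in wildtype, by 0.67 to 1.96, and all 3 immunoproteasome lines decline there, by 0.12 to 0.38; heights of different genes are not comparable.

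In the 20S core, 3 of the 7 alpha ring genes were called higher in wildtype and 1 in YAP-KO, with medians of 0.43 and 0.47. Of all genes 23.3% and 13.5% were called, the latter near the YAP-KO share of the alpha ring. Psma2 read 9.99 and 11.68 in wildtype at 0 h and 24 h and 10.13 and 10.97 in YAP-KO, giving responses of 1.69 and 0.84. Psma7 went from 8.66 to 9.72 in wildtype (1.06) and from 8.79 to 9.26 in YAP-KO (0.47). Psma5 went from 10.15 to 11.04 (0.89) and from 10.28 to 10.68 (0.40). For these 3 ring subunits the wildtype 24 h array was the highest of the 4. Psma1 had the smallest wildtype response, at 10.27 and 10.54 (0.27) against 10.27 and 10.70 in YAP-KO (0.43), and like Psma3 and Psma4 it had the larger response in YAP-KO. With centring the wildtype alpha median was 0.17.

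Among the beta ring genes the genotypes were close: 4 of 6 were called higher in each, with a median of 0.76 in both. Of all genes 23.3% were called in wildtype and 13.5% in YAP-KO. After quantile normalization or centring the wildtype median was 0.50 with 2 of 6 called, against 18.5% and 15.8% of all genes. Psmb2 read 7.67 and 8.82 in wildtype (1.15) and 7.62 and 8.49 in YAP-KO (0.87). Psmb6, the caspase-like catalytic subunit, read 9.19 and 10.04 in wildtype (0.85) and 9.04 and 10.31 in YAP-KO (1.27), the highest YAP-KO response of any member. Psmb4 read 7.81 and 8.60 (0.79) and 7.74 and 8.49 (0.75). So both 24 h arrays were above both 0 h arrays for these 3 subunits. Psmb7, the trypsin-like subunit, read 14.11 and 14.30 in wildtype (0.19; -0.07 with centring and -0.08 with quantile normalization) and 14.13 and 14.50 in YAP-KO (0.37). Psmb1 was 12.70 and 12.60 in wildtype (-0.10) and 12.72 and 13.14 in YAP-KO (0.42). The chymotrypsin-like subunit Psmb5 shares its probe set with a microRNA gene, Mir686; that probe set read 10.78 and 12.05 in wildtype (1.27) and 10.83 and 11.96 in YAP-KO (1.13).

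The tissue-restricted core genes gave low readings: Psma8, a testis subunit, read 5.44, 5.19, 5.12 and 5.45 (wildtype 0 h, YAP-KO 0 h, wildtype 24 h, YAP-KO 24 h), and Psmb11 lay between 3.31 and 3.93. No detection call was used here, so dim readings have no known floor.

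Among the classes, the non-ATPase subunits of the 19S regulator had the highest median response in wildtype. All 11 non-ATPase subunits were at least 1.5-fold higher, with a median of 1.15 and a range from 0.67 (Psmd6) to 1.96 (Psmd8), and 8 were 2-fold higher. Of all genes 23.3% were 1.5-fold and 12.7% 2-fold higher. In YAP-KO 4 of the 11 were called higher, against 13.5% of all genes, with a median of 0.44 and a range from 0.05 (Psmd11; -0.09 with centring) to 1.06 (Psmd8). That count was 3 with quantile normalization and 1 with centring, where 11.7% and 9.54% of all genes were called. The centred median was 0.30. Psmd8, a lid subunit, read 11.55 and 13.51 in wildtype and 11.62 and 12.68 in YAP-KO. Psmd14, the lid enzyme that cuts ubiquitin chains off substrates, read 8.64 and 10.25 in wildtype (1.61) and 8.59 and 9.29 in YAP-KO (0.70). Psmd7, its partner in the lid, read 11.90 and 13.44 (1.54) and 12.06 and 12.73 (0.67). In all 3 the genotypes lay within 0.16 of each other at 0 h and at least 0.71 apart at 24 h. Psmd6, with the smallest wildtype response of this class, read 10.34 and 11.01 (0.67) against 10.49 and 10.93 (0.44). The 8 lid genes alone had medians of 1.24 in wildtype and 0.46 in YAP-KO.

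Of the 6 ATPase genes of the base, 4 were called higher in wildtype and 2 in YAP-KO, with medians of 0.98 and 0.52. Of all genes 23.3% and 13.5% were called. With either other scaling the counts were 4 and 1. In YAP-KO 11.7% of all genes were then called with quantile normalization and 9.54% with centring. Psmc1 read 10.72 and 11.98 in wildtype (1.26) and 10.71 and 11.51 in YAP-KO (0.80). Psmc6 read 12.56 and 13.69 (1.13) and 12.62 and 13.22 (0.60). Psmc4 read 9.97 and 11.07 (1.10) and 10.07 and 10.60 (0.53). The YAP-KO 24 h array stood between both 0 h arrays and the wildtype 24 h array for each of these 3. Psmc3 differed least between the genotypes, at 9.06 and 9.53 (0.47) and 9.05 and 9.48 (0.43). Over the whole regulator 17 of 17 genes had the larger response in wildtype, 16 of 17 after centring or quantile normalization (Psmc3 changed sides), whereas in the constitutive core 6 of 13 did. The difference of the responses had a median of -0.62 over the 17 regulator genes and 0.04 over the 13 core genes, against -0.01 over all genes.

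**Figure D2:**
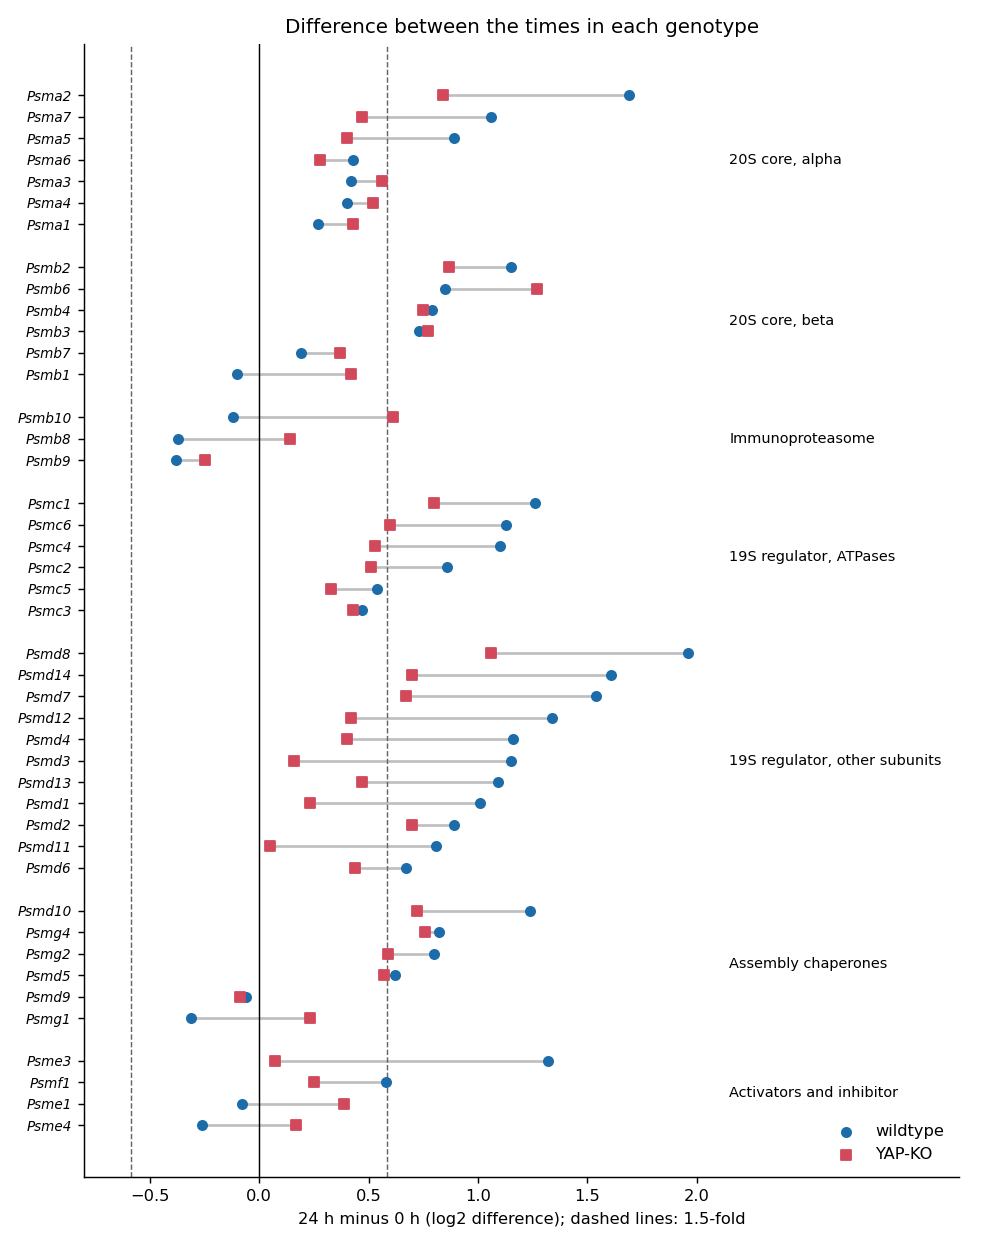
Response of each proteasome gene in wildtype (blue circles) and YAP-KO (red squares), as the 24 h minus 0 h log2 difference (horizontal axis). Genes are on the vertical axis grouped by class, without Psma8, and dashed lines are at 1.5-fold. Every circle of the 19S classes lies to the right of its square, most widely for Psmd3 (1.15 and 0.16). In the beta ring 4 of 6 pairs lie in the other order, but not Psmb2 (1.15 and 0.87) and Psmb4 (0.79 and 0.75).

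The 3 immunoproteasome genes read lower, not higher, in wildtype at 24 h. Psmb8 read 6.06 and 5.69 in wildtype (-0.37) and 6.09 and 6.23 in YAP-KO (0.14). Psmb9 read 4.87 and 4.49 (-0.38) and 4.85 and 4.60 (-0.25), close to the level of the dim filter. Psmb10 read 7.18 and 7.06 (-0.12) and 7.33 and 7.94 (0.61). All 3 were therefore lower in wildtype at 24 h by less than 1.5-fold. Only Psmb10 was called higher in YAP-KO, where 13.5% of all genes were, with no call under quantile normalization or centring. After centring the wildtype median moved from -0.37 to -0.63, with 2 of 3 called lower. Of all genes 21.7% were then called lower, and their median moved from 0.07 to -0.19. Set against the subunits they replace, Psmb6 and Psmb7 had wildtype responses of 0.85 and 0.19, and the Psmb5 probe set 1.27.

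The activators that open the core ends were divided. Psme1, which with Psme2 forms the interferon-inducible PA28 cap, read 9.05 and 8.97 in wildtype (-0.08) and 9.08 and 9.47 in YAP-KO (0.39). The probe set at Psme2, annotated to Psme2b as well, read 7.02 and 6.90 in wildtype and 7.11 and 7.56 in YAP-KO, and the one listed first for Psme2b read 10.16 and 9.24 against 9.79 and 9.87. Near-identical copies may share signal on these 2 probe sets. Psme3, encoding the nuclear PA28 gamma cap, stood apart, at 11.65 and 12.97 in wildtype (1.32) and 12.06 and 12.13 in YAP-KO (0.07; -0.07 with centring). Its difference of responses, -1.25, was the lowest of all 44 genes. Psme4, encoding the PA200 cap, read 11.65 and 11.39 (-0.26) and 11.56 and 11.73 (0.17). Psmf1, encoding the inhibitor PI31, read 6.16 and 6.74 (0.58, below the call before rounding) and 6.26 and 6.51 (0.25).

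Assembly chaperones were mixed. Of 6 genes past the filter, 4 were called higher in wildtype and 3 in YAP-KO, with medians of 0.71 and 0.58, where 23.3% and 13.5% of all genes were called. With quantile normalization 2 and 2 were called and with centring 1 and 1, with a wildtype median of 0.45. Psmd10, encoding gankyrin, a chaperone of the base, read 7.48 and 8.72 in wildtype (1.24) and 7.64 and 8.36 in YAP-KO (0.72). Psmg4 read 5.66 and 6.48 (0.82) and 5.52 and 6.28 (0.76). Psmg2 read 8.37 and 9.17 (0.80) and 8.40 and 8.99 (0.59). Both 24 h arrays were above both 0 h arrays for these 3 chaperones. Psmd5, another base chaperone, had responses of 0.62 and 0.57. Psmd9 stayed near 5.9 on every array (5.86 to 5.95), and Psmg1, the partner of Psmg2 in core assembly, was -0.31 in wildtype and 0.23 in YAP-KO. Psmg3 lay between 3.96 and 4.32.

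**Figure D3:**
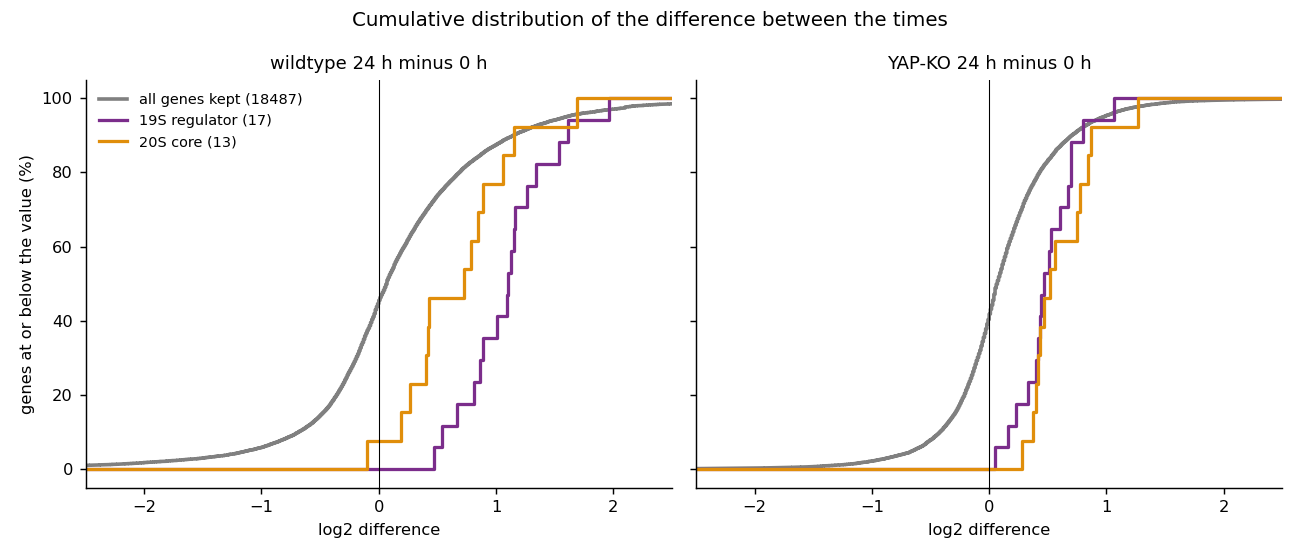
Percentage of genes at or below a given 24 h minus 0 h log2 difference in wildtype (left) and YAP-KO (right), for all 18487 genes above the dim filter (grey), the 17 genes of the 19S regulator (purple) and the 13 constitutive 20S core genes (orange). In wildtype the regulator curve (median 1.10) lies to the right of the core curve (0.73), and in YAP-KO both are close (0.47 and 0.52).

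Before acetaminophen the genotypes hardly differed in proteasome genes. Of the 44, 0 were 1.5-fold higher and 0 lower in YAP-KO, where 3.44% of all genes were higher and 4.86% lower, and the median was 0.04 against -0.03 (0.12 with quantile normalization). Differences ran from -0.25 (Psma8) to 0.41 (Psme3). Of the 11 non-ATPase subunits of the regulator, 10 were above 0, up to 0.36 for Psmd3, with a median of 0.16.

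At 24 h the classes separated between the genotypes. Of 44 genes, 8 were at least 1.5-fold lower in YAP-KO and 1 higher, where 13.4% of all genes were lower and 8.23% higher. Over all genes quantile normalization moved that balance to 10.2% lower and 10.7% higher and centring to 10.6% and 11.2%. The members' counts became 3 lower and 5 higher with quantile normalization and 6 lower and 5 higher with centring. The share called lower was not far above that of all genes and depended on the scaling. Among genes above the 60th percentile of level, 17.6% were lower and 10.8% higher, so the members' share called lower was close to that of bright genes. By class, the non-ATPase subunits had a median of -0.63 with all 11 below 0 (-0.50 and -0.52 with quantile normalization and centring, with 9 and 10 below 0). The beta ring had a median of 0.12 (0.30 with quantile normalization and 0.23 with centring) and the immunoproteasome 0.54 with all 3 above 0 under each of the 3 scalings.

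By gene, the 24 h difference was lowest for Psmd14 (-0.96), followed by Psme3 (-0.84), Psmd8 (-0.83), and Psma2, Psmd7 and Psmd11 (all -0.71). Psmd3 and Psmd12 were each at -0.63. Psmb10 was highest at 0.88, and Psmb1 and Psmb8 were each at 0.54. At 2-fold 0 members were higher and 0 lower, where 3.23% of all genes were higher and 5.72% lower. Psmd3, Psmd11 and Psmd12 were picked out here after their values were seen. These values share the 24 h arrays with the responses above and are not separate evidence.

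**Figure D4:**
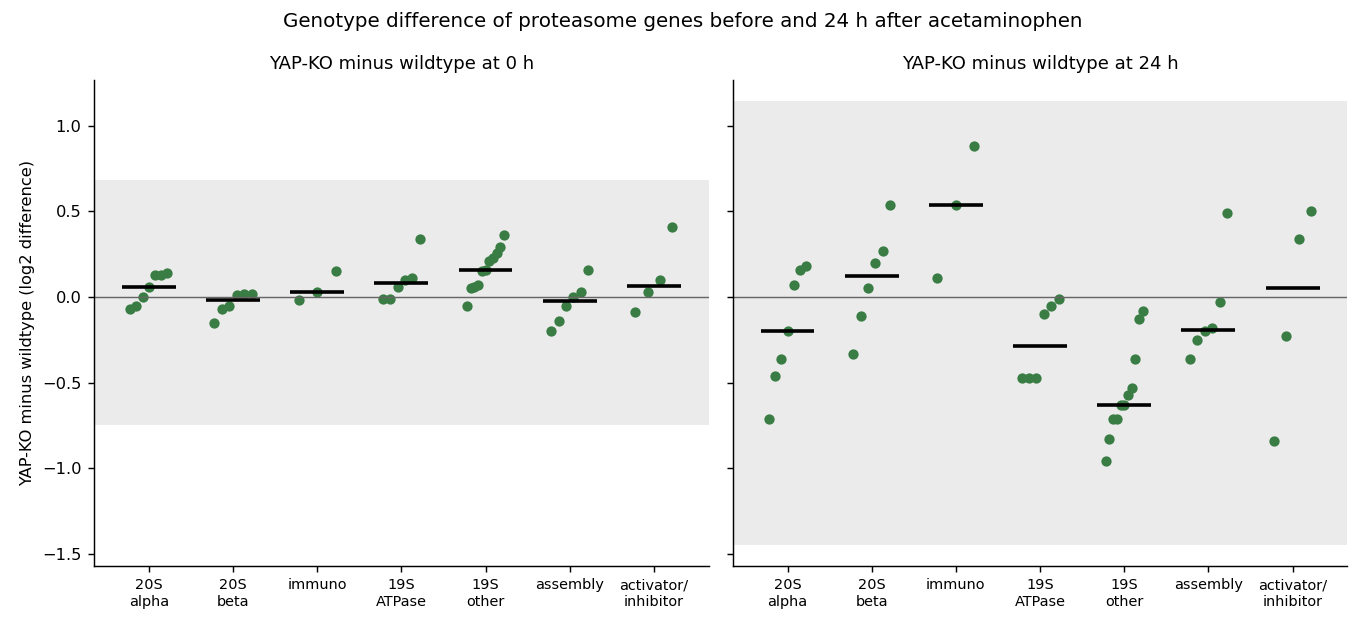
YAP-KO minus wildtype log2 difference (vertical axis) of each proteasome gene by class (horizontal axis) at 0 h (left) and 24 h (right). Psma8 is not drawn. Points are genes, black bars are class medians and the grey band holds the central 95% of all 18487 genes. At 0 h all points lie between -0.2 and 0.41. At 24 h the other 19S subunits (median -0.63) and the immunoproteasome (median 0.54) lie on opposite sides of 0, all inside the grey band.

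Across both genotypes, limma with genotype and time as additive terms called 0 of 44 proteasome genes at a Benjamini-Hochberg adjusted p under 0.05 for either term, and 0% of all genes in either direction. At an unadjusted p under 0.05, 19 of the 44 passed for time, all higher at 24 h, where 11.3% of all genes were higher at that level. For genotype 0 passed at an unadjusted p under 0.05, where 2.36% of all genes did. The lowest adjusted p among the members was 0.285 (limma, time, Psmb2: 1.01 ± 0.19 SE). With 1 residual degree of freedom, taken up by what the additive terms leave over, genes whose responses differ between the genotypes have large errors in this fit.

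Other genes of the pathway, from lists drawn up by function, were followed next to the members. Of 26 measured above the filter out of 37 listed, 8 were called higher and 2 lower in wildtype, and 2 and 1 in YAP-KO, shares near or below those of all genes in YAP-KO and not far from them in wildtype (23.3% and 12%). Nfe2l1, the regulator of subunit genes, read 10.12 and 9.33 in wildtype (-0.79) and 9.83 and 9.71 in YAP-KO (-0.12). Nfe2l2, encoding NRF2, read 9.65 and 9.24 in wildtype (-0.41) and had a response of -1.02 in YAP-KO. The mRNA of neither regulator was higher at 24 h in either genotype, while both proteins are known to be controlled mainly after translation.

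Nploc4, a cofactor of the unfoldase VCP, read 12.10 and 13.34 in wildtype (1.24) and 12.46 and 12.37 in YAP-KO (-0.09), and its partner Ufd1 had responses of 0.88 and 0.39. Vcp itself was 0.62 and 0.54. Ubqln2, encoding a shuttle that brings ubiquitinated proteins to the proteasome, was 1.63 and 0.39, the shuttle gene Rad23b was 0.60 and -0.13, and Usp14, encoding a deubiquitinase bound to the base, was 0.93 and 0.08 (-0.06 with centring). Of the 13 genes in the lists these belong to, 11 had a lower response in YAP-KO than in wildtype as deposited. Of all genes 50% did. The differences were -1.33 for Nploc4, -1.24 for Ubqln2, -0.85 for Usp14, -0.73 for Rad23b, -0.61 for Nfe2l2, -0.54 for Akirin2 and -0.49 for Ufd1. Ubqln1, Ubqln4, Uchl5 and Vcp were nearer 0 and turned above 0 with centring. Nfe2l1 (0.67) and Ngly1 (0.11) had the higher response in YAP-KO. Txnl1, encoding a thioredoxin-like protein of the regulator, was 1.14 and 1.08, and the ubiquitin-activating enzyme gene Uba6 was 0.89 and 0.68. Pomp, encoding the core maturation factor, was 0.40 and 0.49, without a call. The subunit gene Adrm1 was not analysed here.

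Of 8 measured genes of MHC class I processing, 0 were called higher in wildtype and 1 lower, about the 12% of all genes, Erap1, encoding the peptidase that trims peptides in the endoplasmic reticulum (-1.43, and -0.21 in YAP-KO). Tap1, the peptide transporter gene next to Psmb9, was at 6.25 to 6.39 on all arrays. Irf1, encoding an interferon-induced transcription factor, was 6.62 and 6.36 in wildtype and 7.37 and 6.87 in YAP-KO.

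Leukocytes are known to express immunoproteasome genes at high levels, and their markers differed between the arrays. All 9 monocyte and macrophage markers passed the filter, and their summed level (log2 of the summed antilogs) was 11.83 and 13.94 in wildtype and 11.65 and 13.77 in YAP-KO, higher at 24 h in both. Lyz2 made up most of that sum; the list's median at 24 h was 9.04 in wildtype and 7.88 in YAP-KO, Cd14 was at -3.73 and Csf1r at -1.27 between the genotypes, Ly6c2 at 0.97, and the Kupffer cell gene Clec4f was not higher at 24 h in either genotype. The 6 neutrophil markers were at 7.88 and 11.29 in wildtype and 8.13 and 9.31 in YAP-KO. Of 8 T, B and NK cell markers measured, 2 passed the filter, and the summed level was 6.94 to 7.14 on all arrays. The sum of 5 sinusoidal endothelial markers was 13.98 at wildtype 24 h and 12.37 at YAP-KO 24 h and was carried by Lyve1 (5.51 in wildtype), since the list's median response there was 0.15 and Kdr was at -0.63. The sum of 5 stellate cell markers was 10.64 and 10.45 and was carried by Acta2 (3.07), with a median response of -0.06 and Lrat at -1.32. Of the 7 hepatocyte markers 5 were at the top of the scale, so their sum is not informative; the wildtype and YAP-KO responses of Hnf4a were -0.90 and -1.45, and those of Cps1, itself near the top, were -0.76 and 0.04. In these bulk samples more cells of a type and more RNA per cell cannot be told apart. Psmb8 and Psmb9 read lower in wildtype at 24 h, where the monocyte and neutrophil sums were highest; the part of these cells in the proteasome readings was not tested.

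For scale, 2 other multi-subunit complexes were read the same way. The CCT chaperonin, which folds actin and tubulin, had 7 of 7 genes called higher in wildtype with a median of 1.15 and a median of 0.50 in YAP-KO, and a 24 h genotype median of -0.66, close to the 1.15, 0.44 and -0.63 of the non-ATPase subunits. The COP9 signalosome, a relative of the 19S lid, had 5 of 10 called higher in wildtype with medians of 0.54 and 0.36, and -0.11 between the genotypes at 24 h. Of all genes 23.3% were called higher in wildtype. The wildtype increase and its lower size in YAP-KO were thus not particular to the proteasome.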

How the data were processed

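Liver RNA from 4 groups was read on 4 arrays, 1 per group, each a pool of 3 mice. The authors deposited 1 value table on what is taken, from the values (2.24 to 19.93), as a log2 scale; its log base, summarisation and normalization are not given in the sources used here. Per the labels, RNA was biotin-labelled with the GeneChip WT Plus kit.

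Of 65956 probe sets, 31285 carried 1 gene in the platform annotation, 1465 several and 33206 none; 849 symbols were updated through RefSeq identifiers. The brightest probe set per symbol was used, and genes with a mean under the 40th percentile were left out. Contrasts are differences between single arrays. The additive fit used limma 3.58.1 in R 4.3.3 with Benjamini-Hochberg adjustment, and was tested on simulated data. Other steps used Python 3.11.15 with pandas 2.3.3.

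Members described in full are the 3 largest and the smallest wildtype responses per class, the immunoproteasome and the subunits it replaces. Members and lists were chosen with earlier results of these data known. Alternatives were quantile normalization, centring, other filters, probe-set means, the other 0 h array and other fold sizes. The number of arrays limits the precision.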

Additional observations from a re-analysis of the deposited data

Results flagged for a closer look

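Some members had responses of opposite sign in the 2 genotypes; with 1 array each, these differences were not tested. The difference of responses (YAP-KO minus wildtype) was 0.52 for Psmb1, 0.51 for Psmb8, 0.73 for Psmb10, 0.54 for Psmg1, 0.47 for Psme1, 0.43 for Psme4 and 0.58 for Psma8. As deposited, each was negative in wildtype and positive in YAP-KO. With centring the YAP-KO response of Psmb8 was no longer above 0. The probe sets shared by Psme2 and Psme2b gave 0.57 and 1.0 in the same direction. Rad23b (-0.73) and Nploc4 (-1.33) were positive in wildtype and negative in YAP-KO. Of the 44 proteasome genes above the filter 15.9% had opposite signs, against 31.4% of all genes.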

How the results depend on the processing

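Of 344 values recomputed, 315 stayed within the binomial interval of a median over its genes or within 1.5 times a count. That interval treats genes as replicates, and for every class but the non-ATPase subunits it was the full range. Many of the 344 could not change, such as medians of classes that an alternative left untouched. The 315 therefore does not measure stability. Of the medians at 1.5-fold or more, 0 changed sign. With centring, the activator and inhibitor median in wildtype went from 0.25 to -0.01. The assembly median of the difference of responses went from -0.055 to 0.065. Left out of the 344 were probe-set means and the removal of saturated members. Neither could change anything, since each member had 1 probe set and none was saturated. The 60th percentile filter removed Psmb9 and moved the immunoproteasome median to -0.24 in wildtype and 0.38 in YAP-KO.

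With quantile normalization the member median was 0.36 for the YAP-KO response and 0.12 for the genotypes at 0 h. At 24 h 5 genes were higher and 3 lower in YAP-KO (10.7% and 10.2% of all genes). By 1.5-fold, 5 had a larger YAP-KO response (16.1% of all genes). With centring, 2 genes were lower in the wildtype response, where the alpha ring median was 0.17 and the immunoproteasome median -0.63; in the YAP-KO response 8 were higher with a median of 0.32; 5 were higher in YAP-KO at 24 h and 6 in the difference of responses. Centring moved the median of all genes in wildtype from 0.07 to -0.19. With no filter 1 gene was lower in wildtype and 2 were higher in the difference of responses. From the other 0 h array the YAP-KO median was 0.58. With the shared probe sets counted (chosen after seeing the data), 2 genes were higher in YAP-KO at 24 h, against 8.24% of all genes.

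At 2-fold, 16 genes were higher in wildtype, 2 in YAP-KO, 0 higher and 0 lower between the genotypes at 24 h, and 0 higher and 1 lower in the difference of responses. At the smallest fold size tried, 33 were higher and 2 lower in wildtype (34.1% and 21.7% of all genes). In YAP-KO 32 were higher (26.1%), so the genotypes had nearly equal counts of higher genes at this size. Between the genotypes 3 were higher in YAP-KO at 0 h (10.05%), and 7 higher and 18 lower at 24 h (17.8% and 24.3%). In the difference of responses 8 were higher and 19 lower (25.2% and 27.1%).

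No paired analysis was possible because each group holds 1 array and the groups share only the replicate number 1. No group has a second array to leave out.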
